A study of Mus musculus with 18 samples.

Results

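Nodal, Gdf3, Tdgf1, Lefty1, Lefty2, Cer1 and Foxh1 are the ligands, coreceptor, antagonists and transcription factor at the centre of the Nodal signalling pathway, and they were taken by name from the deposited gene count table. All 7 were present among 25239 genes, and all 7 passed the filter on low counts that left 16582 genes for testing. Their RNA was followed in the E14Tg2a mouse embryonic stem cell (ESC) line and in a TET-TKO derivative, in which the open reading frames of Tet1, Tet2 and Tet3 had been cut out with CRISPR/Cas9, as the cells passed from epiblast-like cells (EpiLCs) towards primordial germ cell-like cells (PGCLCs). The table held 18 libraries in 9 conditions, 2 biological replicates each. EpiLCs of both genotypes had been made from ESCs kept in 2i and LIF by culture in N2B27 with Activin A and Fgf, and were the day 0 samples. Wild-type aggregates without cytokines were sampled at days 2 and 6, and wild-type PGCLCs with cytokines at day 6. TKO aggregates were sampled at days 2 and 6, each with and without cytokines. The cytokines were BMP4, BMP8a, SCF, LIF and EGF in GK15 medium, and the medium without them was otherwise the same. Every day 2 and day 6 sample thus came from cells grown in suspension and out of the Activin medium. By the description of the experiment, wild-type PGCLCs grown with cytokines to the later day were sorted for SSEA1 and CD61, although their label says aggregates. The same description gives the other populations as full aggregates. Every comparison with the wild-type PGCLCs therefore also set sorted against unsorted cells, and the 2 cannot be told apart. The study worked mainly with 1 TKO clone, and the clone used for these libraries is not stated in the sources used here.

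Nodal is a ligand of the TGF-beta superfamily that binds Activin receptors together with an EGF-CFC coreceptor, of which Tdgf1 (Cripto) is the main one in the epiblast. The receptors phosphorylate Smad2 and Smad3, which enter the nucleus with Smad4 and act on enhancers with the forkhead factor Foxh1. Nodal, Lefty1 and Lefty2 are themselves targets of this cascade, and the secreted Lefty proteins block Nodal and its coreceptor, so the pathway carries both positive and negative feedback. Activin signals through the same receptors without the coreceptor. In the mouse embryo the pathway maintains the epiblast, patterns the streak and induces mesoderm and endoderm, while the antagonists Lefty1 and Cer1 are made by the anterior visceral endoderm.

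Library totals ran from 11286050 to 41257861 counts with a median of 16305168, and the ribosomal RNA gene Rn45s took 16.2% to 47.6% of them. This share differed between conditions. It was 47.6% and 40.7% in wild-type EpiLCs and 21.5% and 31.3% in day 2 wild-type cells. TKO aggregates had 16.2% to 20.9% without cytokines and 31.7% to 37.3% with them. Levels given for each library are counts divided by DESeq2 size factors (normalised counts), given as replicate 1 and replicate 2. Of the targeted genes, Tet3 separated the genotypes in all 4 matched conditions (EpiLCs had 821 and 1019 in the wild type against 131 and 159 in the TKO). Tet1 overlapped at day 2 without cytokines (2028 and 1754 in wild-type, 1937 and 1200.3 in TKO libraries) and at day 6 without cytokines, and Tet2 was higher in the TKO libraries at day 2 (355 and 405 against 287 and 200.4). These are totals over each gene, and counts per exon were not used here, so they check the genotype labels only in part. The summed general pluripotency markers (Pou5f1, Nanog, Sox2 and Utf1) were 29662 and 26345 in wild-type EpiLCs and 2939 and 2772 in day 6 wild-type cells without cytokines, where the 5 neural markers summed to 21774 and 24014. The PGC markers summed to 8349 and 6666 in wild-type PGCLCs and to 145 and 117 in wild-type EpiLCs. The day 6 wild-type libraries without cytokines stood apart from each other. Ttr, on the list of 7 visceral endoderm markers, was 5.44 in replicate 1 and 1331 in replicate 2. The whole list summed to 29.0 and 1372, so Ttr alone made up most of it in replicate 2. The definitive endoderm sum went the other way, at 73.9 and 9.26. Replicate 2 was also lower for each of the 6 pathway genes detected there.

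Nodal lies at chr10:61417972-61425338 (plus strand, 3 exons, mm10). In wild-type cells its normalised counts were 871 and 673 in EpiLCs, 308 and 203 at day 2 without cytokines, 7.25 and 1.16 at day 6 without cytokines and 947 and 1022 in day 6 PGCLCs. Nodal was thus present in EpiLCs and PGCLCs, lower after 2 days without cytokines and near 0 after 6. In TKO cells the counts were 1098 and 683 in EpiLCs, 1643 and 1606 at day 2 and 1217 and 1098 at day 6 without cytokines, and 1386 and 982 at day 2 and 1277 and 813 at day 6 with them. Day 2 TKO aggregates without cytokines had the highest mean, 1625 ± 25.8 (SD, n = 2), and did not overlap the next condition. From there to wild-type EpiLCs each condition overlapped its neighbour in the order, and day 2 and then day 6 wild-type cells without cytokines stood below with no overlap.

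The promoter window of Nodal, from 250 bases before to 50 after the start of the RefSeq transcript (mm10), is shown with CpG dinucleotides, the substrate of the TET enzymes when methylated, in capitals. It held 5 of them, against a median of 7 over 32851 windows of the same length, and no methylation was measured in these files.
Nodal promoter, chr10:61417722-61418021, plus strand: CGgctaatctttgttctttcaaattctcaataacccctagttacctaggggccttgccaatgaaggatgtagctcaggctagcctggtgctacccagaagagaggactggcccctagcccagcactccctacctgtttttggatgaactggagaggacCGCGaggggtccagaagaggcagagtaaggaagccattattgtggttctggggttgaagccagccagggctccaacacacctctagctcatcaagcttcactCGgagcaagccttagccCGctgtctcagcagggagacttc

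Gdf3, a second ligand of the family that acts with Nodal through Tdgf1, lies at chr6:122605403-122610087 (minus strand, 2 exons, mm10). Wild-type libraries had 718 and 548 in EpiLCs, 99.4 and 53.6 at day 2 and 4.53 and 1.16 at day 6 without cytokines, and 740.5 and 647 in PGCLCs. In TKO libraries Gdf3 was 761 and 456 in EpiLCs, 824 and 625 and 644 and 661 at days 2 and 6 without cytokines, and 585 and 658 and 694 and 422 with them. The 7 conditions other than wild-type aggregates without cytokines had means from 558 to 724, and each overlapped its neighbour. The fall was seen in the same 2 conditions as for Nodal.

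Tdgf1, the coreceptor, lies at chr9:110939608-110946158 (minus strand, 6 exons, mm10). In wild-type cells it stood at 3785 and 3296 in EpiLCs, 164 and 66.0 at day 2 and 9.97 and 2.32 at day 6 without cytokines, and 3552 and 3744 in PGCLCs. The TKO values were 5779 and 9055 in EpiLCs, 5531 and 5743 at day 2 and 5082 and 4636 at day 6 without cytokines, and 10656 and 8411 at day 2 and 11453 and 11117 at day 6 with cytokines. All 5 TKO conditions lay above all 4 wild-type conditions. The order began with day 6 TKO aggregates with cytokines, at 11285 ± 237 (SD, n = 2), and ended with day 6 wild-type cells without cytokines. Neighbours overlapped only between day 2 TKO aggregates with cytokines and TKO EpiLCs, and between wild-type PGCLCs and wild-type EpiLCs. A processed copy, Tdgf1-ps1, shares 12.5% of the 50-base windows of the Tdgf1 transcript. Reads lying wholly in a shared stretch could not be placed, and the level is uncertain to that extent, which was not counted.

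The Tdgf1 promoter window held 7 CpG dinucleotides (capitals). The letters GGGCGTGG, a GC box of the kind that Klf factors bind, were searched on both strands and occurred 2 times, beginning at bases 206 and 225 of the window. At least 2 copies were found in 0.728% and at least 1 in 5.33% of all windows of this length. A match of letters is a description and shows no binding.
Tdgf1 promoter, chr9:110946109-110946408, minus strand: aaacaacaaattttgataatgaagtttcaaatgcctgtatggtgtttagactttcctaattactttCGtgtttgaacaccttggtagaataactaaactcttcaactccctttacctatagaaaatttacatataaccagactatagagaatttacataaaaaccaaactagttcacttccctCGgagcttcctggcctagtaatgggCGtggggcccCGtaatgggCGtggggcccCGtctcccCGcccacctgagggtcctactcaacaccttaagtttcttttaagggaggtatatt

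Lefty1 and Lefty2, the feedback inhibitors, are neighbours on chromosome 1, 35.9 kb apart. Lefty1 lies at chr1:180935022-180938401 (plus strand, 4 exons, mm10) and Lefty2 at chr1:180893108-180899107 (plus strand, 4 exons, mm10). They are near-copies: 17.9% of the 50-base windows of the Lefty1 transcript also occur in Lefty2, with a longest shared run of 140 bases. Reads lying wholly in a shared stretch could not be assigned to either gene, and how many did so was not counted. Lefty1 was 7281 and 3953 in wild-type EpiLCs, 615 and 235 at day 2 and 1.81 and 0 at day 6 without cytokines, and 1961 and 1111 in PGCLCs. Wild-type EpiLCs were the highest condition of the 9 and overlapped no other. In TKO cells Lefty1 was 2653 and 2284 in EpiLCs, 2800.1 and 2479.8 and 2466 and 2922 at days 2 and 6 without cytokines, and 2613 and 2126 and 1357 and 819 with them. The first 4 of these overlapped in turn. Day 6 TKO aggregates with cytokines were lower and overlapped wild-type PGCLCs.

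Lefty2 had a different order. Its wild-type levels were 1047 and 1242 in EpiLCs, 455 and 180.2 at day 2 and 6.80 and 2.32 at day 6 without cytokines, and 3696 and 1974 in PGCLCs. TKO libraries had 1266 and 3266 in EpiLCs, 2201 and 2161 and 3311 and 2859 without cytokines at days 2 and 6, and 2199.6 and 2270.2 and 3900.5 and 2488 with them. The 5 TKO conditions and wild-type PGCLCs formed a run of overlapping neighbours. Wild-type EpiLCs came next below it, followed by day 2 and day 6 wild-type cells without cytokines, each apart from the one above. The TKO EpiLC replicates differed by a larger factor for Lefty2 than for any of the other genes but Cer1, which was at the counting floor.

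Cer1, a secreted antagonist that binds Nodal and BMPs, lies at chr4:82881751-82885151 (minus strand, 2 exons, mm10) and was almost absent. Its raw counts were 0 and 1 in wild-type EpiLCs, 19 and 12 at day 2 without cytokines, 0 and 0 at day 6 without cytokines and 0 and 1 in PGCLCs. In TKO cells they were 2 and 0 in EpiLCs, 0 and 2 at day 2 and 44 and 41 at day 6 without cytokines, and 0 and 0 at day 2 and 0 and 0 at day 6 with cytokines. Cer1 was above 3 counts per library, the floor used here, in 2 conditions, day 2 wild-type and day 6 TKO aggregates without cytokines. The latter had 49.6 ± 3.09 (SD, n = 2) normalised counts. Endoderm genes were present in the day 6 TKO aggregates without cytokines (Sox17 78.6 and 30.3, Foxa2 42.0 and 26.5, Ttr 53.8 and 56.8), whose definitive endoderm markers summed to 416 and 275. With cytokines that sum was 445 and 538 and Sox17 was 60.5 and 75.8, while Cer1 was at 0, Ttr was at 0 and Foxa2 was 6.72 and 3.44. The 7 visceral endoderm markers summed to 284 and 239 without cytokines and to 405 and 276 with them. In day 2 wild-type aggregates, the other condition with Cer1 above the floor, the definitive endoderm sum was 76.0 and 58.3. Their visceral endoderm sum was 124 and 61.4. The part of endoderm cells in the Cer1 values was not tested.

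The Cer1 promoter window held 6 CpG dinucleotides (capitals). The letters TGTGGATT, a Foxh1 site, and GTCTAGAC, a Smad palindrome, were searched on both strands. They occurred in 0.855% and 0.213% of all windows and in none of the 3 windows shown, which says only that these letters are not in them.
Cer1 promoter, chr4:82885102-82885401, minus strand: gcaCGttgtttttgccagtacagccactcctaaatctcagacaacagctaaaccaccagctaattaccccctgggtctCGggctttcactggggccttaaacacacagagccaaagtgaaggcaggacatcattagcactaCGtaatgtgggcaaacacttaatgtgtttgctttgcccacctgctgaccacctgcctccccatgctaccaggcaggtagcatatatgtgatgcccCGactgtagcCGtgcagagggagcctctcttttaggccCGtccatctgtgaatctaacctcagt

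Foxh1, the transcription factor that carries the Smads to DNA, lies at chr15:76667829-76671614 (minus strand, 3 exons, mm10). It was 1396 and 1652 in wild-type EpiLCs, 1168 and 1569 at day 2 and 20.9 and 8.11 at day 6 without cytokines, and 533 and 457 in PGCLCs. The TKO libraries had 1187 and 1051 in EpiLCs, 597 and 536 and 443 and 493 without cytokines at days 2 and 6, and 661 and 453 and 358 and 228 with them. Foxh1 was highest in wild-type EpiLCs, day 2 wild-type cells and TKO EpiLCs, which overlapped in turn. Its place in the order therefore differed from that of the ligands and the Lefty genes, which were low in day 2 wild-type cells.

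**Figure D1:**
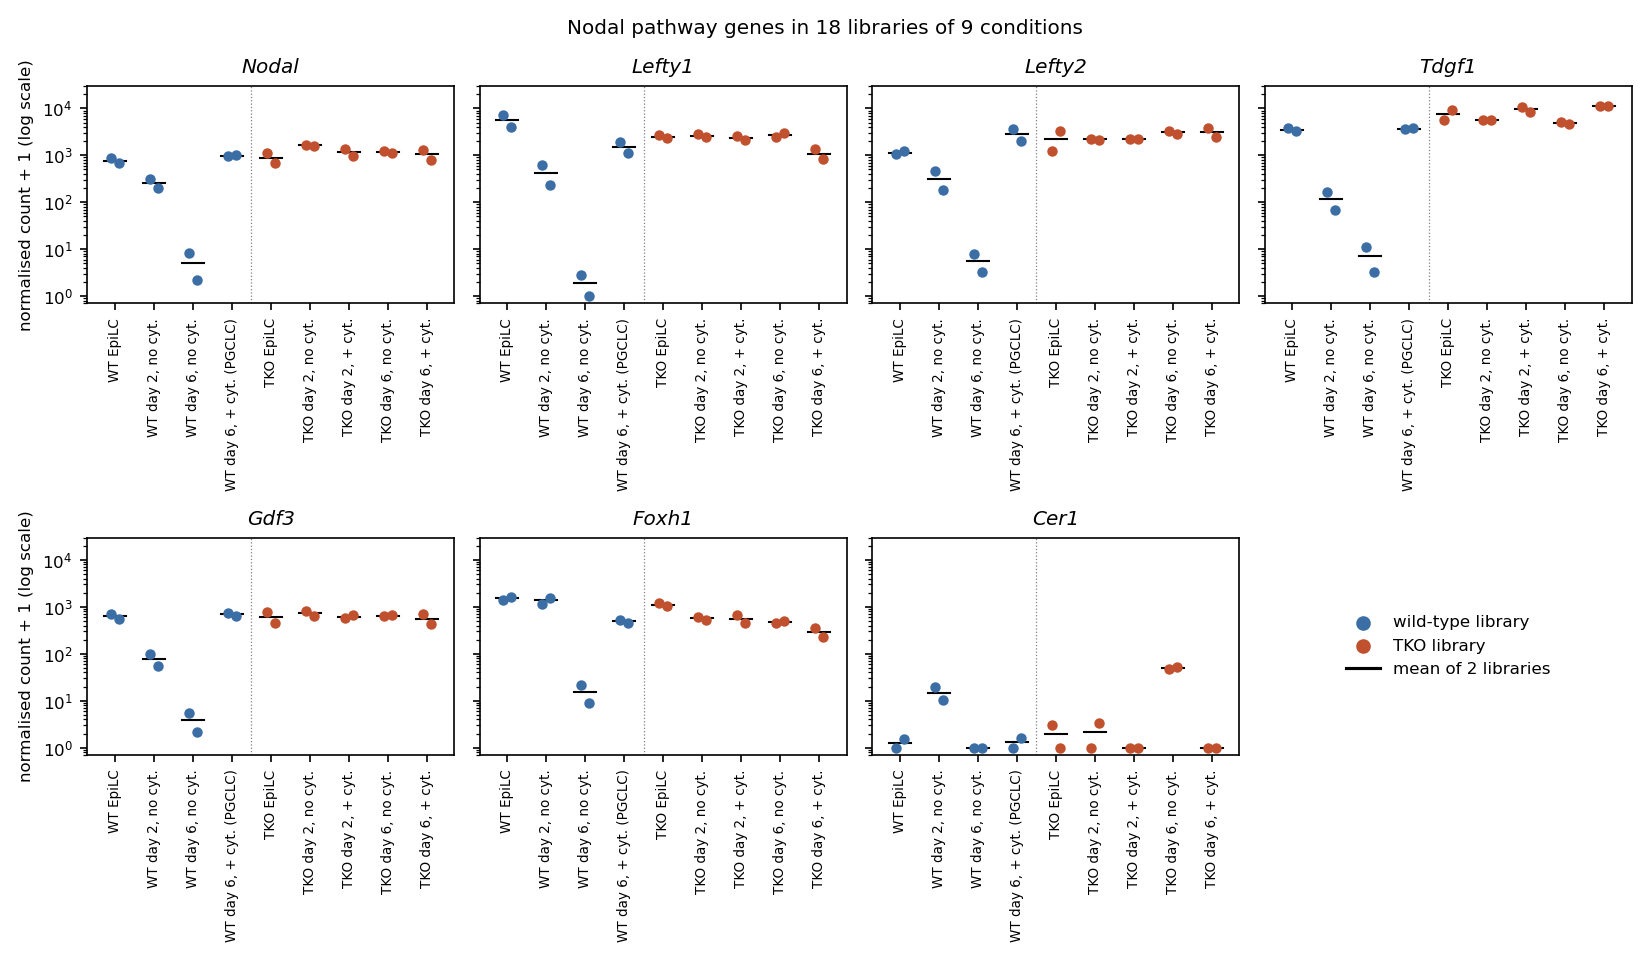
Normalised count + 1 (log scale) of the 7 genes in the 9 conditions, with 1 point per library and a bar at the mean of 2. Wild-type cells without cytokines at day 6 lie below every other condition for each gene but Cer1, and Cer1 is highest in day 6 TKO aggregates without cytokines.

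Wild-type cells left without cytokines had less RNA of the ligands, the coreceptor and both Lefty genes after 2 days, while Foxh1 was not called. In the edgeR quasi-likelihood model over all 18 libraries, 5 of the 7 genes were lower at day 2 than in EpiLCs at an adjusted p below 0.05, against 15.7% of all genes tested, and 1 was higher, against 18.6%. Tdgf1 fell most, 30.1-fold (log2 fold change -4.91, SE 0.38, edgeR adjusted p = 4.68e-07), followed by Lefty1 at 12.8-fold (log2 fold change -3.68, SE 0.43, edgeR adjusted p = 1.96e-05). Gdf3 fell 8.04-fold (log2 fold change -3.01, SE 0.34, edgeR adjusted p = 1.55e-05) and Nodal 2.92-fold (log2 fold change -1.55, SE 0.31, edgeR adjusted p = 0.00138). Lefty2 fell 3.52-fold (log2 fold change -1.82, SE 0.45, edgeR adjusted p = 0.00549), a call that was lost without day 2 replicate 2 (adjusted p = 0.0665). Foxh1 differed by -0.10 (SE 0.27, edgeR adjusted p = 0.794) on the log2 scale, and its sign turned when libraries were scaled by their totals alone. Cer1 rose from 1 count in all to 31, a ratio of 32.5-fold (95% counting interval 5.41 to 1323), with an edgeR adjusted p of 0.00837, or 0.0677 without EpiLC replicate 2. Intervals on counts cover counting error only. The median log2 fold change of the 6 genes without Cer1 was -2.41, beside 0.02 over all genes tested. Of the markers, 3 of 4 EpiLC genes fell, 2 of 4 general pluripotency genes rose and 2 fell, and 3 of 5 neural genes rose. The summed neural level was 4801 and 3528 at day 2 and 524 and 478 in EpiLCs. In bulk RNA, fewer cells that express a gene and less RNA per cell cannot be told apart, and the part of cell types in these falls was not tested.

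From day 2 to day 6 without cytokines all 7 genes fell, against 19% of all genes. The raw counts left at day 6 were 16 and 1 for Nodal, 10 and 1 for Gdf3, 22 and 2 for Tdgf1, 4 and 0 for Lefty1, 15 and 2 for Lefty2 and 46 and 7 for Foxh1, in libraries of 33893720 and 13195593 counts. Pooled over replicates, Lefty1 was 309.5-fold (95% counting interval 120.5 to 1138) higher at day 2 than at day 6, Foxh1 80.6-fold (95% counting interval 61.4 to 108), Lefty2 54.6-fold (95% counting interval 33.8 to 94.2) and Nodal 45.0-fold (95% counting interval 27.9 to 77.9). Gdf3 was 20.6-fold (95% counting interval 11.2 to 42.1) and Tdgf1, already low at day 2, 14.0-fold (95% counting interval 9.19 to 22.2) higher. In the edgeR model the log2 fold changes of these 6 genes ran from -8.28 (Lefty1, adjusted p = 6.74e-07) to -3.95 (Tdgf1, adjusted p = 1.09e-05). Cer1 was at 0 in both day 6 libraries and at least 5.76-fold higher at day 2 (edgeR adjusted p = 0.00210), with the floor taken as 3 counts per library. Foxh1, which had not passed the test between EpiLCs and day 2, fell here 86.8-fold in the model (log2 fold change -6.44, SE 0.36, edgeR adjusted p = 1.32e-08), while Tdgf1 had lost most of its RNA by day 2. Over the same step 3 of 4 general pluripotency genes fell and 4 of 5 neural genes rose. Pou5f1 went from 3786 and 8819 to 39.0 and 5.79. The part of this change of cells in the falls was not tested. Leaving out day 6 replicate 1 moved the log2 fold changes of the 6 genes to -11.75 (Lefty1) to -5.58 (Tdgf1), and leaving out replicate 2 moved them to -7.82 (Lefty1) to -3.53 (Tdgf1), with every call kept.

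Cytokines separated the wild-type cells of day 6. PGCLCs had 6 of the 7 genes higher than cells without cytokines, against 29.6% of all genes, and none lower, against 28.6%. From pooled counts Lefty1 was 1166-fold (95% counting interval 455 to 4281) higher and Lefty2 506-fold (95% counting interval 316 to 869) higher. Tdgf1 was 467-fold (95% counting interval 314 to 729), Gdf3 193-fold (95% counting interval 108 to 387), Nodal 178-fold (95% counting interval 111 to 306) and Foxh1 28.6-fold (95% counting interval 21.7 to 38.3) higher. Every one of these calls had an edgeR adjusted p of 3.28e-08 or less, and each held when any of the 4 libraries was left out. The fitted log2 fold changes were 4.96 (Foxh1) to 10.14 (Lefty1) with all libraries, 5.95 (Foxh1) to 13.61 (Lefty1) without replicate 1 of the cells without cytokines and 4.60 (Foxh1) to 9.68 (Lefty1) without their replicate 2. Cer1 was at or under the floor in both conditions. The median log2 fold change of the 6 genes was 8.29, beside 0.01 over all genes tested. All 4 general pluripotency and all 5 PGC markers were higher with cytokines and all 5 neural markers lower, and their part in this was not tested.

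Against the EpiLCs they came from, wild-type PGCLCs had 1 of the 7 genes higher (22.4% of all genes) and 2 lower (18.2%). The 2 Lefty genes moved in opposite directions. Lefty1 fell 3.53-fold (log2 fold change -1.82, SE 0.40, edgeR adjusted p = 0.00216) and Lefty2 rose 2.55-fold (log2 fold change 1.35, SE 0.43, edgeR adjusted p = 0.0214). The rise of Lefty2 was lost without EpiLC replicate 1 (edgeR adjusted p = 0.127), EpiLC replicate 2 (0.0712) or PGCLC replicate 1 (0.220). The fall of Lefty1 held without each of the 4 libraries. Foxh1 fell 2.99-fold (log2 fold change -1.58, SE 0.27, edgeR adjusted p = 0.000370). For Nodal, Tdgf1 and Gdf3 the log2 differences were 0.40 (adjusted p = 0.299), 0.09 (adjusted p = 0.848) and 0.18 (adjusted p = 0.664) by edgeR, and none passed the test.

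In EpiLCs the coreceptor Tdgf1 alone was called between the genotypes, and that call was not stable. Of the 7 genes 1 was higher in TKO cells (7.57% of all genes) and none lower (3.18%). Tdgf1 rose 2.14-fold (log2 fold change 1.10, SE 0.32, edgeR adjusted p = 0.0370). This call was lost without wild-type replicate 1 (adjusted p = 0.151), wild-type replicate 2 (0.209) or TKO replicate 2 (0.266). Lefty1 was lower in both TKO libraries than in either wild-type one but missed the threshold with edgeR (log2 fold change -1.15, SE 0.39, edgeR adjusted p = 0.0738) and passed it with DESeq2 (adjusted p = 0.0261). Lefty2 differed by 1.01 (SE 0.43, edgeR adjusted p = 0.148), a p that fell to 0.0385 without TKO replicate 1. Nodal, Gdf3 and Foxh1 differed by 0.24 (adjusted p = 0.652), -0.02 (adjusted p = 0.988) and -0.42 (adjusted p = 0.347) on the log2 scale by edgeR. Of the markers, 2 of 4 EpiLC genes were lower in TKO cells (sums 25502 and 24303 against 52892 and 57810.4), and 3 of 4 definitive endoderm, 2 of 5 PGC and 2 of 4 general pluripotency genes were higher. Their part was not tested.

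After 2 days without cytokines the genotypes parted. Here 5 of the 7 genes were higher in TKO aggregates (18% of all genes) and 2 lower (14.8%). Tdgf1 was 48.6-fold higher (log2 fold change 5.60, SE 0.39, edgeR adjusted p = 1.53e-07), Gdf3 9.36-fold (log2 fold change 3.23, SE 0.35, edgeR adjusted p = 7.74e-06) and Lefty2 6.77-fold (log2 fold change 2.76, SE 0.46, edgeR adjusted p = 0.000345). Nodal was 6.25-fold higher (log2 fold change 2.64, SE 0.32, edgeR adjusted p = 1.99e-05) and Lefty1 6.13-fold (log2 fold change 2.62, SE 0.41, edgeR adjusted p = 0.000238). No TKO library overlapped a wild-type one for any of the 5. Foxh1 went the other way, 2.47-fold lower in TKO aggregates (log2 fold change -1.31, SE 0.27, edgeR adjusted p = 0.00197), with no overlap either. Cer1, with 2 counts in all in TKO and 31 in wild-type libraries, was 12.0-fold (95% counting interval 3.06 to 104) higher in wild-type cells with an edgeR adjusted p of 0.0257. That call was lost with DESeq2 (adjusted p = 0.0698), without wild-type replicate 1 (0.109) and without TKO replicate 1 (0.178). The median over the 6 genes without Cer1 was 2.70, beside 0.00 over all genes. All 5 PGC, all 4 naive and 3 of 4 general pluripotency markers were also higher in TKO aggregates, and their part was not tested.

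By day 6 without cytokines all 7 genes were higher in TKO aggregates (28.5% of all genes were, and 26.9% lower). Lefty1 was 2053-fold (95% counting interval 801 to 7539) higher, Tdgf1 624-fold (95% counting interval 419 to 974) and Lefty2 560.2-fold (95% counting interval 349.6 to 962). Nodal was 209.8-fold (95% counting interval 131 to 361) higher, Gdf3 182-fold (95% counting interval 101 to 365) and Foxh1 27.0-fold (95% counting interval 20.4 to 36.3). The adjusted p of these 6 by edgeR ran from 1.86e-09 to 4.35e-08. Cer1 was at least 20.5-fold higher (edgeR adjusted p = 0.000134). All 7 calls held without each of the 4 libraries, and the log2 fold changes of the 6 genes, 4.86 (Foxh1) to 10.93 (Lefty1) with all of them, were 5.84 (Foxh1) to 14.40 (Lefty1) without wild-type replicate 1 and 4.50 (Foxh1) to 10.47 (Lefty1) without wild-type replicate 2. The median over the 6 genes was 8.45, or 7.76 over 7 with Cer1 at its bound, beside 0.01 over all genes. General pluripotency markers summed to 23786 and 25618 in TKO aggregates and 2939 and 2772 in wild-type cells, neural markers to 1478 and 2079.9 and 21774 and 24014, and their part was not tested.

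With cytokines at day 6 Tdgf1 alone of the 7 genes was called between the genotypes. Of the 7 genes 1 was higher in TKO aggregates (11.3% of all genes) and none lower (7.53%). Tdgf1 was 3.08-fold higher (log2 fold change 1.62, SE 0.32, edgeR adjusted p = 0.00283), and the call held without each of the 4 libraries. For Foxh1 the log2 difference was -0.77 (SE 0.28, edgeR adjusted p = 0.0651), and its p fell below the threshold with DESeq2 (0.0335). Nodal, Lefty1, Lefty2 and Gdf3 differed by 0.08 (adjusted p = 0.889), -0.50 (adjusted p = 0.405), 0.17 (adjusted p = 0.827) and -0.32 (adjusted p = 0.510) by edgeR. A p above the threshold does not show equal levels, and the wild-type cells alone are given as sorted. In TKO aggregates 4 of 5 PGC markers were lower (sums 2879 and 3528 against 8349 and 6666) and 3 of 4 definitive endoderm markers higher (445 and 538 against 75.1 and 117), and their part was not tested.

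**Figure D2:**
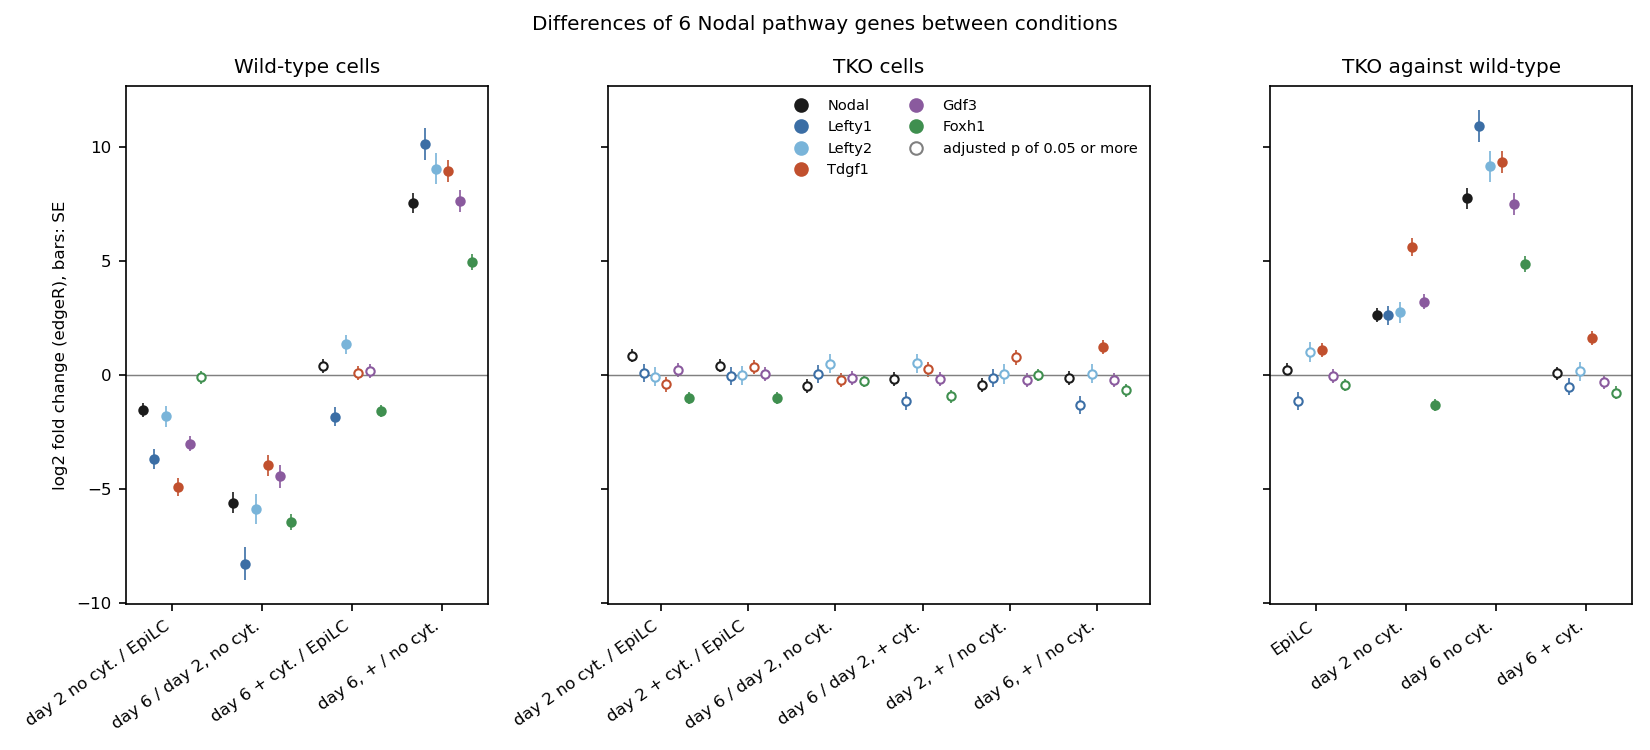
log2 fold changes (vertical axis) of the 6 genes other than Cer1 with their SE from the edgeR model, for comparisons within wild-type cells, within TKO cells and of TKO against wild-type cells. Filled points had an adjusted p below 0.05 and open points did not. The wild-type steps without cytokines reach -8.28, while no TKO step goes beyond -1.29 or 1.23.

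Within TKO cells few of the genes passed the test at any step. Most of all genes tested did not pass at these steps either, so few calls do not set the pathway genes apart. From EpiLCs to day 2 without cytokines none rose and 1 fell, where 1682 of all 16582 genes tested rose and 8.52% fell. With cytokines again none rose and 1 fell, where 1306 of all genes rose and 6.39% fell. The gene that fell was Foxh1 both times, 1.99-fold without cytokines (log2 fold change -0.99, SE 0.27, edgeR adjusted p = 0.0209) and 2.00-fold with them (SE 0.27 on the log2 scale, edgeR adjusted p = 0.0221). With library totals alone Foxh1 missed the threshold without cytokines (log2 fold change -0.49, edgeR adjusted p = 0.194). Nodal then passed it as higher (log2 fold change 1.35, edgeR adjusted p = 0.00661), where the median of all genes was 0.546. The 2 comparisons of day 2 with EpiLCs share the EpiLC libraries. The first call was lost on leaving out any 1 of its 4 libraries (adjusted p 0.0562 to 0.138). The second was lost without EpiLC replicate 1 (0.0909), EpiLC replicate 2 (0.0548) or day 2 replicate 2 (0.178). Nodal was higher at day 2 without cytokines than in EpiLCs in every library, but missed the threshold with edgeR (log2 fold change 0.86, SE 0.30, edgeR adjusted p = 0.0565) and passed it with DESeq2 (0.0268) and, with edgeR, without EpiLC replicate 1 (0.0386).

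From day 2 to day 6 without cytokines 1 of the 7 genes rose in TKO aggregates, against 0.422% of all genes, and that was Cer1. Its counts went from 2 in all to 85, a ratio of 44.3-fold (95% counting interval 11.9 to 372) (edgeR adjusted p = 0.0445). The call was lost on leaving out any of the 4 libraries (adjusted p 0.187 to 0.449). From day 2 to day 6 with cytokines no member was called by edgeR, against 6% of all genes in either direction. Unadjusted p-values were below 0.05 for 2 of the 7, Lefty1 (-1.12 (SE 0.40, edgeR adjusted p = 0.113)) and Foxh1 (-0.93 (SE 0.28, edgeR adjusted p = 0.0636)), and DESeq2 called 1, Foxh1. Cytokines at day 2 gave no call among the 7 by edgeR either, against 4.52% of all genes. The unadjusted p was below 0.05 for 1, Tdgf1 (0.77 (SE 0.31, edgeR adjusted p = 0.154)), and DESeq2 called 0. At day 6 cytokines raised 1 gene (2.56% of all genes) and lowered 1 (3.05%). Tdgf1 rose 2.35-fold (log2 fold change 1.23, SE 0.32, edgeR adjusted p = 0.0354), a call lost without any 1 of the 4 libraries (adjusted p 0.0889 to 0.203). Cer1 fell to 0 and was at least 11.7-fold higher without cytokines (edgeR adjusted p = 0.00783), or 0.0605 and 0.0588 without either library with cytokines. Lefty1 was lower with cytokines in both libraries at -1.29 (SE 0.40, edgeR adjusted p = 0.0678), and passed with DESeq2 (0.0195). These calls moved with the scaling. With library totals alone Tdgf1 missed the threshold (edgeR adjusted p = 0.138) and Lefty1 (0.00841) and Foxh1 (0.0122) passed it as lower, and with totals less Rn45s Tdgf1 missed it (0.0600) and Lefty1 passed (0.0464).

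The difference between the genotypes was tested with interaction terms. For cytokines at day 6 the term was lower in TKO cells for all 7 genes, against 22% of all genes. The 6 genes other than Cer1 had a smaller response in TKO than in wild-type cells. The log2 differences of response were -11.43 (SE 0.84, edgeR adjusted p = 1.03e-07) for Lefty1, -8.99 (SE 0.79, edgeR adjusted p = 5.49e-07) for Lefty2 and -7.68 (SE 0.54, edgeR adjusted p = 7.52e-08) for Nodal. They were -7.84 (SE 0.58) for Gdf3, -7.72 (SE 0.56) for Tdgf1 and -5.63 (SE 0.44) for Foxh1, each with an edgeR adjusted p of 2.15e-07 or less. With wild-type library 1 of day 6 without cytokines left out the 6 terms were -14.91 (Lefty1) to -6.62 (Foxh1), and with library 2 left out -10.97 (Lefty1) to -5.27 (Foxh1). The sizes rest on the few counts of these wild-type libraries, and the wild-type arm with cytokines is the one given as sorted. Cer1 was at or under the floor in both wild-type arms and fell with cytokines in TKO cells. It had 44 and 41 counts in day 6 TKO aggregates without cytokines. Its term rests on these and on 1 count in replicate 2 of the wild-type PGCLCs. The Cer1 term was -10.70, and -8.70 without that wild-type library. Its adjusted p of 0.0327 was above 0.05 without any 1 of 5 of the 8 libraries. For time, from EpiLCs to day 2 without cytokines, 4 of the 7 genes had a higher term in TKO cells, against 6.08% of all genes. The terms were 4.50 (SE 0.47, edgeR adjusted p = 3.60e-05) for Tdgf1, 3.77 (SE 0.57, edgeR adjusted p = 0.000593) for Lefty1, 3.25 (SE 0.46, edgeR adjusted p = 0.000333) for Gdf3 and 2.40 (SE 0.43, edgeR adjusted p = 0.00198) for Nodal. Lefty2 missed the threshold at 1.75 (SE 0.61, edgeR adjusted p = 0.0767). It passed with DESeq2 (1.80, adjusted p = 0.0287) and with edgeR without the filter on low counts (adjusted p = 0.0061). With 1 library left out its term ran from 1.22 to 2.60.

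The balance of the 2 Lefty genes shifted along the series. Per kilobase of transcript, the ratio of Lefty1 to Lefty2 was 10.6 and 4.86 in wild-type EpiLCs and 0.810 and 0.859 in PGCLCs. At day 2 without cytokines it was 2.06 and 1.99, and at day 6 it is not given, since Lefty1 had 4 counts in all. In TKO cells the ratio was 3.20 and 1.07 in EpiLCs, 1.94 and 1.75 and 1.14 and 1.56 at days 2 and 6 without cytokines, and 1.81 and 1.43 and 0.531 and 0.502 with cytokines. Lefty1 thus exceeded Lefty2 in both wild-type EpiLC libraries by more than in any other library, while Lefty2 exceeded Lefty1 in both wild-type PGCLC libraries and both day 6 TKO libraries with cytokines. The ratio carries no test, and shared reads of the near-copies bear on it.

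**Figure D3:**
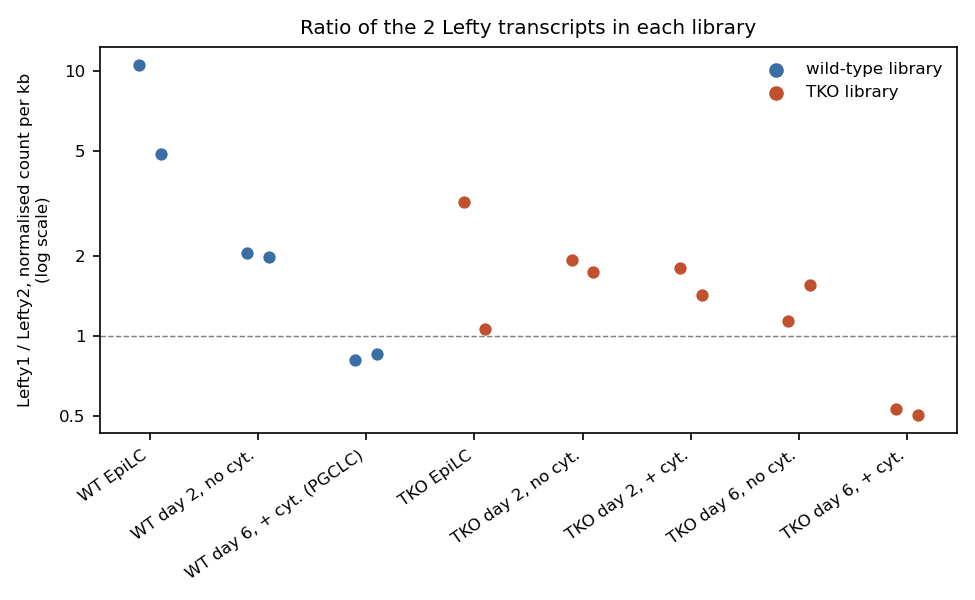
Ratio of Lefty1 to Lefty2 per kilobase of transcript (vertical axis, log scale), 1 point per library, in 8 conditions. Day 6 wild-type cells without cytokines are left out for want of counts. Points above 1 have more Lefty1 and points below 1 more Lefty2, and wild-type PGCLCs and day 6 TKO aggregates with cytokines lie below 1.

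Per kilobase of transcript, Tdgf1 was the most abundant of the 7 genes in all 5 TKO conditions and in wild-type PGCLCs, at 5841 ± 123 normalised counts per kilobase (SD, n = 2) in day 6 TKO aggregates with cytokines and 1888 ± 70.3 in PGCLCs. In wild-type EpiLCs Lefty1 came first at 3467 ± 1452, ahead of Tdgf1 at 1833 ± 179. In wild-type cells without cytokines Foxh1 came first, at 1003 ± 208 on day 2 and 10.6 ± 6.60 on day 6. Nodal itself ranked between 3 and 5, with 368 ± 66.9 in wild-type EpiLCs and 775 ± 12.3 in day 2 TKO aggregates without cytokines, and Cer1 was last in every condition. Each gene named first had no library at or below a library of the next gene.

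Around these genes, a list of 34 further pathway genes was followed, of which 32 were tested. The ligand Gdf1 had 0 counts in all libraries and the receptor Acvr1c was too low. How reads at Gdf1 were assigned was not examined, so its 0 does not show that the RNA was absent. In wild-type cells from EpiLCs to day 2 without cytokines 8 rose and 7 fell, where 18.6% of all genes rose and 15.7% fell. Of 11 inhibitors 1 rose and 5 fell, among them Smad7, the inhibitory Smad, at -2.91 (SE 0.27, edgeR adjusted p = 2.59e-06), Skil at -1.83 (SE 0.23, edgeR adjusted p = 2.86e-05) and Pmepa1 at -1.67 (SE 0.25, edgeR adjusted p = 0.000155). All 3 are known targets of the pathway that dampen it. Of the signal carriers and receptors, Smad3 rose by 1.63 (edgeR adjusted p = 0.000321), the type II receptor Acvr2a by 1.24 (adjusted p = 0.00380), and Smad2 differed by 0.12 (adjusted p = 0.655). The median log2 fold change of the 32 genes was 0.15, beside 0.02 over all genes.

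At day 6 with against without cytokines in wild-type cells 15 of these 32 genes were higher and 8 lower (29.6% and 28.6% of all genes), with a median of 0.16. Of the 11 inhibitors 8 were higher and none lower, while 1 of the 4 receptor and coreceptor genes tested was higher and 2 were lower. Higher genes included Smad7 at 3.36 (SE 0.27, edgeR adjusted p = 7.70e-08), the convertase Pcsk6, which cleaves the Nodal precursor, at 3.45 (SE 0.33, edgeR adjusted p = 4.64e-07), and the target Eomes at 4.09 (SE 0.37, edgeR adjusted p = 2.74e-07). Of 6 targets 2 were higher, Eomes and Mixl1 at 2.38 (adjusted p = 0.0108), and 2 lower, Lhx1 at -5.09 (adjusted p = 1.01e-05) and Foxa2 at -4.14 (adjusted p = 0.00275), all by edgeR. The definitive endoderm sum, which includes Foxa2, was 73.9 and 9.26 in the cells without cytokines. Foxa2 was thus low in their replicate 2, and its call was not tried with a library left out. Other lower genes of the list included Acvr2a at -2.08 (SE 0.28, edgeR adjusted p = 1.66e-05) and Smad3 at -1.63 (SE 0.26, edgeR adjusted p = 7.84e-05). The genotypes at day 6 without cytokines gave 15 higher and 8 lower in TKO aggregates (28.5% and 26.9% of all genes), a comparison that shares the wild-type libraries without cytokines with the last. There Smad7 differed by 2.24 (adjusted p = 4.86e-06), Pcsk6 by 3.18 (adjusted p = 1.38e-06), Eomes by 3.74 (adjusted p = 9.05e-07), Acvr2a by -1.97 (adjusted p = 3.79e-05) and Smad3 by -1.63 (adjusted p = 0.000103), all by edgeR.

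At day 2 without cytokines TKO aggregates had 9 of the 32 higher and 3 lower (18% and 14.8% of all genes). Smad7 was higher by 3.28 (SE 0.28, edgeR adjusted p = 7.08e-07), Pcsk6 by 3.38 (SE 0.34, edgeR adjusted p = 4.07e-06) and Pmepa1 by 2.12 (SE 0.25, edgeR adjusted p = 2.03e-05). In EpiLCs 4 were higher in TKO cells and 0 lower, against 7.57% and 3.18% of all genes. The 4 were Eomes by 2.86 (SE 0.34, edgeR adjusted p = 0.000216), the convertases Furin by 1.74 (SE 0.16, edgeR adjusted p = 3.41e-05) and Pcsk6 by 1.20 (SE 0.32, edgeR adjusted p = 0.0262), and Smad3 by 1.04 (SE 0.27, edgeR adjusted p = 0.0228). Furin and Pcsk6 both process the Nodal precursor. With cytokines at day 6 4 were higher in TKO cells and 4 lower (11.3% and 7.53% of all genes), among them Pmepa1 at 1.25 (SE 0.24, edgeR adjusted p = 0.00255) and Skil at -0.73 (SE 0.22, edgeR adjusted p = 0.0306). Gsc, a target of high Nodal signalling, had 144 and 113 normalised counts in TKO and 2.09 and 4.50 in wild-type libraries (edgeR adjusted p = 0.000126). It was the 1 target of 6 called higher there, and Lhx1 was called lower, at -3.57 (SE 0.98, edgeR adjusted p = 0.0197). In TKO cells at day 6 cytokines raised 3 and lowered 2 of the list, against 2.56% and 3.05% of all genes.

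**Figure D4:**
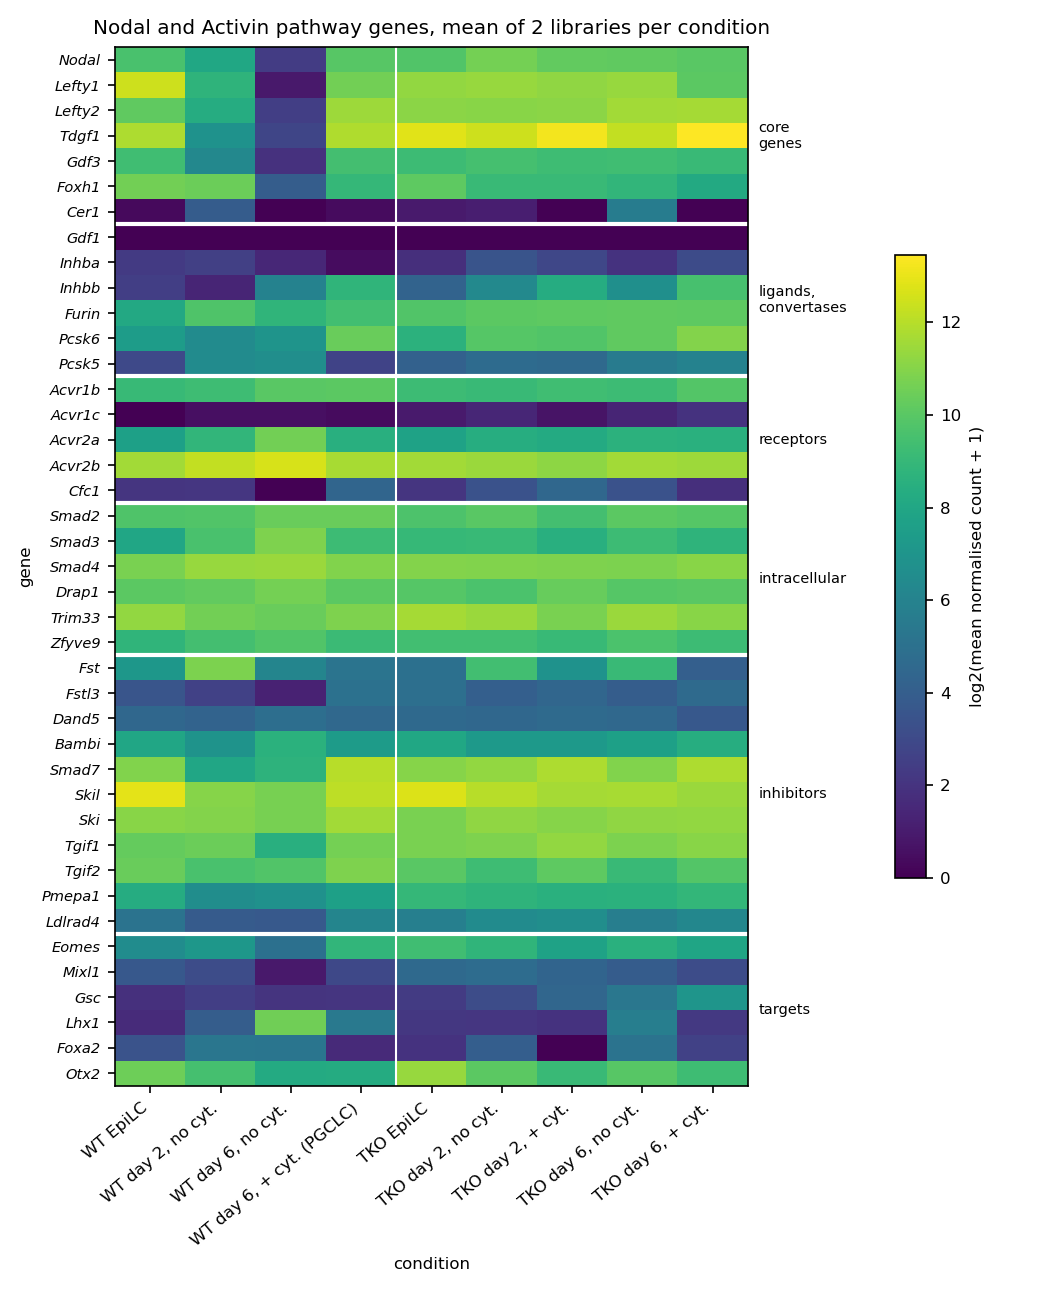
log2 of the mean normalised count + 1 (n = 2) of the pathway genes (rows, by role) in the 9 conditions (columns), from dark blue for low to yellow for high levels. The column of day 6 wild-type cells without cytokines is dark for the ligands Nodal and Gdf3, Tdgf1 and the Lefty genes and stays green to yellow for Smad2, Smad3, Smad4 and the receptors Acvr1b, Acvr2a and Acvr2b.

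Across the 9 condition means (log2 CPM), the patterns of Nodal, Lefty1, Lefty2, Tdgf1 and Gdf3 resembled each other, with Pearson correlations from 0.909 to 0.988. Foxh1 correlated with them at 0.638 to 0.877 and Cer1 with the other 6 at -0.064 to 0.238. These values share 1 low point, and without day 6 wild-type cells without cytokines, over 8 conditions, Nodal correlated with Lefty2 at 0.912 and with Lefty1 at 0.675, Lefty1 with Lefty2 at 0.530, and Foxh1 with the 5 at -0.762 to 0.045. The correlations are descriptions over few points that share libraries. Of all genes tested, those most like each by this measure were Dppa5a, Tex19.1 and Jade1 for Tdgf1, Tmem30b, Dppa4 and Rnf17 for Gdf3, Atf7ip2, Gimap9 and Kcnk6 for Nodal, Zfp985, Anxa11 and Zfp345 for Lefty1, Syt9, Prr23a3 and Cd164 for Lefty2, and Klc3, Prss8 and 2410003L11Rik for Foxh1. Their correlations were between 0.981 and 0.996 over 9 conditions. For Cer1 the first was Zfp457 at 0.897. By rank correlation at most 1 of the 3 genes stayed among the first 3, and over the 18 libraries at most 2 did.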

How the data were processed

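Stranded RNA-seq libraries were made by the authors after ribosomal RNA depletion. Per the labels and the study's methods, reads were trimmed with Trim Galore 0.5.0 and cutadapt 1.16, aligned to mm10 with STAR 2.7.1a and counted per refGene gene with featureCounts (Subread 1.5.2). The deposited values are raw counts, and no strand option or multi-mapped reads appear in the stated counting options. Of the rows, 33 held counting commands and no gene and were left out. They name 4 TKO aggregate libraries, while the table holds 8, and the run that counted the others is not given in the sources used here.

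The genes and lists were chosen with earlier results of these data known. Levels are counts divided by DESeq2 size factors (mean ± SD, n = 2). Tests used edgeR 4.0.16 in R 4.3.3 (TMM, filterByExpr, quasi-likelihood, 1 model of 9 condition means, Benjamini-Hochberg over 16582 genes, call at an adjusted p below 0.05), and SE is the size of the log2 fold change over the square root of F. Genes outside the 7 are named with values where a result turns on them or, for the other pathway genes, from a fixed list. Ratios against under 60 counts carry exact 95% intervals from pooled counts. Bounds use 3 counts per library. DESeq2 1.42.0, other scalings and filters, a block for the replicate number and models without 1 library were alternatives. The scripts were tested on simulated data. Gene starts and ends came from refGene and promoters from RefSeq, where 3 of the 7 genes had a record. Strand, exon number and transcript length came from GENCODE transcripts matched to RefSeq. Levels per kilobase and shared windows used the longest GENCODE transcript taken for each gene. 1 further pathway gene of the list is not reported here, and ESC libraries were not used here.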

Additional observations from a re-analysis of the deposited data

Results flagged for a closer look

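The response to cytokines at day 6 differed between the genotypes for all 7 genes by the interaction term of the edgeR model, less stably for Cer1. The wild-type arm with cytokines is the one given as sorted, so sorting and cytokines cannot be told apart in this term. On the log2 scale TKO minus wild-type response was -7.68 for Nodal, -7.84 for Gdf3, -7.72 for Tdgf1, -11.43 for Lefty1, -8.99 for Lefty2, -5.63 for Foxh1 and -10.70 for Cer1, whose value depends on libraries at 0 counts and is no estimate of size.

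The change from EpiLCs to day 2 without cytokines differed between the genotypes for 4 genes by the same kind of term, by 2.40 for Nodal, 3.25 for Gdf3, 4.50 for Tdgf1 and 3.77 for Lefty1.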

How the results depend on the processing

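Of the 54 calls on single genes, 38 kept their direction and their side of the threshold under every alternative, libraries left out included. Over 925 values under other processing, 862 did so, 16 lost and 34 gained a call, and 13 changed sign, none of them called with all settings unchanged. Scaling by library totals alone shifted the median of all genes, most for wild-type day 2 against EpiLCs, where it was 0.589 on the log2 scale beside 0.02 with TMM. Calls for that comparison went from 3090 higher and 2606 lower to 6495 and 1046. Signs that turned are relative to that shift. With totals alone the log2 fold changes that turned were Gdf3 0.31 (TKO against wild-type EpiLCs), Foxh1 0.44 (wild-type day 2 against EpiLCs), Lefty2 0.47 (TKO day 2 without cytokines against EpiLCs), Tdgf1 0.11 (TKO day 2 without cytokines against EpiLCs), Lefty1 0.0017 (TKO day 2 with cytokines against EpiLCs), Lefty2 0.0706 (TKO day 2 with cytokines against EpiLCs), Lefty2 -0.40 (TKO cytokines at day 2) and Lefty2 -0.47 (TKO cytokines at day 6). With totals less Rn45s the log2 fold changes that turned were Gdf3 0.0753 (TKO against wild-type EpiLCs), Foxh1 0.0669 (wild-type day 2 against EpiLCs), Lefty2 0.12 (TKO day 2 without cytokines against EpiLCs), Lefty2 -0.12 (TKO cytokines at day 2) and Lefty2 -0.0798 (TKO cytokines at day 6). With totals less Rn45s the number of the 7 genes called was 2 for TKO day 2 without cytokines against EpiLCs. With no filter on low counts the number of the 7 genes called was 2 for TKO day 2 without cytokines against EpiLCs, TKO day 6 against day 2 with cytokines and TKO against wild-type at day 6 with cytokines, 3 for TKO against wild-type EpiLCs. With a mean CPM of at least 1 the number of the 7 genes called was 0 for TKO day 6 against day 2 without cytokines, 1 for TKO cytokines at day 6. With the replicate number as a block the number of the 7 genes called was 0 for TKO day 6 against day 2 without cytokines, 1 for TKO day 6 against day 2 with cytokines, 2 for TKO against wild-type EpiLCs and TKO day 2 without cytokines against EpiLCs. With DESeq2 the number of the 7 genes called was 0 for TKO day 6 against day 2 without cytokines, 1 for TKO day 6 against day 2 with cytokines, 2 for TKO against wild-type EpiLCs, TKO day 2 without cytokines against EpiLCs and TKO against wild-type at day 6 with cytokines. With a model of only the libraries compared the number of the 7 genes called was 1 for TKO cytokines at day 2, 2 for TKO against wild-type EpiLCs, TKO day 2 without cytokines against EpiLCs, TKO day 6 against day 2 with cytokines and TKO against wild-type at day 6 with cytokines, 3 for TKO day 6 against day 2 without cytokines. With a log2 fold change beyond 2 as well the number of the 7 genes called was 0 for TKO against wild-type EpiLCs, wild-type PGCLCs against EpiLCs, TKO day 2 without cytokines against EpiLCs, TKO day 2 with cytokines against EpiLCs and TKO against wild-type at day 6 with cytokines, 1 for TKO cytokines at day 6. The causes were not tested. No label tied the replicate numbers of different conditions to each other. Over 36 pairs of conditions the correlation of their deviations ran from -0.156 to 0.182 (median 0.012), with 7 over 0.1. These values cannot tell whether some of the conditions were paired. The block brought past the threshold Lefty1 for TKO against wild-type EpiLCs (edgeR adjusted p = 0.0309), TKO day 6 against day 2 with cytokines (0.0348) and TKO cytokines at day 6 (0.0171), and Nodal for TKO day 2 without cytokines against EpiLCs (0.0175), and Cer1 lost its call for TKO day 6 against day 2 without cytokines (0.0631). Leaving out 1 library, the number of genes called was 0 to 2 for TKO against wild-type EpiLCs, 0 to 1 for TKO day 2 without cytokines against EpiLCs, 0 to 1 for TKO day 2 with cytokines against EpiLCs, 0 to 0 for TKO day 6 against day 2 without cytokines, 0 to 1 for TKO cytokines at day 6 and 1 to 2 for TKO against wild-type at day 6 with cytokines. Log2 fold changes whose sign turned ran as follows. For TKO against wild-type EpiLCs they were Nodal -0.13 to 0.54 and Gdf3 -0.43 to 0.30. For wild-type day 2 against EpiLCs they were Foxh1 -0.36 to 0.11. For TKO against wild-type at day 6 with cytokines they were Nodal -0.29 to 0.38, Lefty2 -0.22 to 0.69 and Gdf3 -0.73 to 0.0011. For TKO day 2 without cytokines against EpiLCs they were Lefty1 -0.0126 to 0.19, Lefty2 -0.60 to 0.78 and Gdf3 -0.0755 to 0.65. For TKO day 2 with cytokines against EpiLCs they were Lefty1 -0.20 to 0.0816, Lefty2 -0.55 to 0.83 and Gdf3 -0.28 to 0.44. For TKO day 6 against day 2 without cytokines they were Lefty1 -0.0859 to 0.14 and Gdf3 -0.34 to 0.0757. For TKO cytokines at day 2 they were Gdf3 -0.40 to 0.0160 and Foxh1 -0.30 to 0.23. For TKO day 6 against day 2 with cytokines they were Nodal -0.54 to 0.12 and Gdf3 -0.56 to 0.17. For TKO cytokines at day 6 they were Nodal -0.50 to 0.16, Lefty2 -0.30 to 0.36 and Gdf3 -0.62 to 0.11. Depth limits Cer1 throughout and every gene in day 6 wild-type cells without cytokines.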
